A study of Mus musculus with 96 samples.

Results

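Lgr5 and 9 other genes of the Wnt pathway were followed through the serum response of mouse embryonic fibroblasts, which makes 10 of the 15895 genes of the table. The genes were taken by symbol: Lgr5 and Lgr4, the ligand Wnt5a, the secreted antagonists Sfrp1, Sfrp2, Dkk2 and Dkk3, the target Axin2, the transcription factor Lef1, and Ctnnb1, which encodes beta-catenin. Lgr5 was chosen by the size of its fall from the starved libraries, so its levels against those libraries are given as a description and carry no test. The other 9 genes were selected on membership of the pathway, with earlier results of these data known.

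The cells were primary fibroblasts (MEFs) from CF1 embryos of day 13 (E13), with no genetic change named in the labels. All libraries come from cells held for 36 h in 0.5% fetal calf serum, and serum was then raised to 20% at 0 h. Libraries were made from 2 time courses, called cycle 1 (63 libraries, -1 to 38 h) and cycle 2 (32 libraries, -1 to 27 h), and the starved group holds the -1 and 0 h libraries of each. Each hour is a single library in a cycle, 29 hours after serum were sampled in both cycles, and no source used here says whether the libraries of a cycle came from separate dishes or embryo pools, so p-values measure the spread between these libraries.

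Wnt proteins bind Frizzled and Lrp receptors at the cell surface and, in the canonical branch, keep beta-catenin from being degraded, so that it enters the nucleus and acts with Tcf and Lef factors on target genes. R-spondins raise this signal: they bind Lgr4, Lgr5 or Lgr6 and remove the ubiquitin ligases Znrf3 and Rnf43, which otherwise clear the Wnt receptors. Sfrp proteins bind Wnts outside the cell, Dkk2 acts on the Lrp co-receptor, and Axin2 is a target that feeds back on the pathway. Lgr5 is best known as a marker of stem cells of the intestine and hair follicle, and it is also expressed in mesenchymal cells.

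All values are the deposited normalised values, reads over the exons of a gene scaled to 10000000 reads per library. For some genes they are a mean over transcripts. This holds for Lef1, Wnt5a and Ctnnb1 among the members, by values that are in many libraries not a whole number of reads. Depth, recovered from the steps between low values, ranged from 5067439 to 14500276 reads with a median of 10832557, so that 3 reads correspond to a value near 3. All 10 fibroblast markers checked were present in every library, with a summed value of 389245 to 536681 in the starved libraries and of 198430 to 210236 at 25 to 27 h. Over the same windows the summed value of 5 endothelial markers went from 213 to 282 down to 56.3 to 109, that of 7 epithelial markers was 157 to 395 and then 220 to 584, that of 6 macrophage markers was 271 to 621 and then 162 to 447, and that of 5 neural markers, most of it Nes, was 762 to 1181 and then 1698 to 3255. Of these markers Epcam, Krt5, Krt14, Pecam1, Cdh5 and Aif1 were at 0 in at least 1 library each. The others were above 0 in every library, among them Krt19 (37.5 to 412), Kdr (23.5 to 176) and Csf1r (37.6 to 270). The part of such cells in the results was not tested. These are bulk samples, in which fewer cells of a type and less RNA per cell cannot be told apart. The 24.5 h library of cycle 1 stood apart, with a median absolute log2 difference from its neighbours of 0.41 over 9112 genes. That of the median library was 0.09. The 24.5 h library enters no test because that hour was sampled in cycle 1 alone. The cycle 1 libraries of 24, 25 and 26 h were at 0.26, 0.23 and 0.23, and they do enter tests. Those of 24 and 25 h have the 24.5 h library as a neighbour. The 26 h library held 5680743 reads.

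On the NCBIM37 (mm9) assembly with the GENCODE vM1 annotation, Lgr5 lies at chr10:114887367-115024836 on the minus strand and Lgr4 at chr2:109757804-109854414 on the plus strand. Lef1 (chr3:130813389-130927274) and Dkk2 (chr3:131748256-131843257) lie 820982 bases apart on the plus strand of chromosome 3, and Sfrp2 lies on the same chromosome at chr3:83570243-83578238. Axin2 is at chr11:108781663-108812097, Sfrp1 at chr8:24521974-24560104, Dkk3 at chr7:119259533-119302571, Wnt5a at chr14:29317936-29340633 and Ctnnb1 at chr9:120838334-120869625. Reads were counted on both strands, so exon reads of Axin2, Sfrp2, Wnt5a and Ctnnb1 cannot be told apart from those of the overlapping antisense genes Gm11670, Gm16790, Gm2670 and Ulk4.

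Promoter windows of 300 bases, from 250 before to 50 after a start site, were at hand for 6 of the 10 genes (RefSeq, GRCm38.p6). There was no entry for Lgr5, Sfrp1, Dkk3 and Wnt5a. The windows of Lgr4, Axin2 and Dkk2 are shown because these genes were called lower at 1 to 3 h, and 1 of the 4 Lef1 windows because Lef1 rose and this window alone, of 10 windows, held the core letters TCAAAG that Tcf and Lef factors are known to bind. Letters in capitals mark a match to TCAAAG on either strand or to the AP-1 site TGANTCA, which reads alike on both strands. No match to TGANTCA was found in the 10 windows.
Lgr4, chr2:109917397-109917696, plus strand: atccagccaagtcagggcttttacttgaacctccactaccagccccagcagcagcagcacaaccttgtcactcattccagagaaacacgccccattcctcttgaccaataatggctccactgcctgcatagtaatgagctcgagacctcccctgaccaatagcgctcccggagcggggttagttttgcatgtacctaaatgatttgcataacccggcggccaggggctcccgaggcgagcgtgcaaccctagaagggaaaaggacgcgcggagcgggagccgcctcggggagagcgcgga
Axin2, chr11:108920099-108920398, plus strand: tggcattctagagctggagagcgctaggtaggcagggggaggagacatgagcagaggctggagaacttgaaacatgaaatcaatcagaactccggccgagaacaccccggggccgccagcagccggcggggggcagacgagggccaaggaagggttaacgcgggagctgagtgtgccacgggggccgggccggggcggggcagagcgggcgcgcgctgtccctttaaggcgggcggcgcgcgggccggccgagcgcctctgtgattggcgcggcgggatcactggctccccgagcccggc
Dkk2, chr3:132085042-132085341, plus strand: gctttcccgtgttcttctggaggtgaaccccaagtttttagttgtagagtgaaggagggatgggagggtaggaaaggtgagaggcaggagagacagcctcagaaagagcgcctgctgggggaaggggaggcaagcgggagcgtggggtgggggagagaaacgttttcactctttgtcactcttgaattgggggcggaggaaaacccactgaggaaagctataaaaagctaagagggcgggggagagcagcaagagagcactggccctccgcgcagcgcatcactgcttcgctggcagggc
Lef1, chr3:131156044-131156343, plus strand: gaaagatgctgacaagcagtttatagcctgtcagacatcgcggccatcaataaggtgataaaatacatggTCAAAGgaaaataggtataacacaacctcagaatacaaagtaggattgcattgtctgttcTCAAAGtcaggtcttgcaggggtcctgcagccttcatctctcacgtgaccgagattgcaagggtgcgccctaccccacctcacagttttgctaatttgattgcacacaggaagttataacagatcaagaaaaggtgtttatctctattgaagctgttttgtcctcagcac
The 2 matches of the Lef1 window begin 180 and 120 bases before the start site. This window lies downstream of the other Lef1 windows, which begin at chr3:131110047, chr3:131110073 and chr3:131112541 and hold no match. Which start site of Lef1 the cells used was not tested. Among all 32851 promoter windows of the reference table, 16.0% held TCAAAG and 7.81% held TGANTCA, so a window with no match is the common case. The windows of Axin2 (70.0% G and C) and Lgr4 (58.3%) hold no match to either motif.

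Lgr5, a receptor of the R-spondins, fell to 0.034 times its starved mean or less within 6 h of serum in both cycles. The starved libraries held 1769 and 1887 in cycle 1 and 1462 and 1375 in cycle 2, and the gene was first below 0.5 times the starved mean at 2 h and at 2.5 h. Between 11 and 14 h the lowest, median and highest values were 0, 5.90 and 14.6 in cycle 1 (6 libraries, at most 9 reads each) and 27.5, 37.5 and 50.6 in cycle 2 (4 libraries). No library from 2.5 h on in cycle 2, or from 2 h on in cycle 1, came back to 0.5 times the starved mean, and the starved values do not overlap with those of any later hour in cycle 1. The mean at 11 to 14 h was 283-fold below the starved mean in cycle 1 and 37.1-fold below it in cycle 2. In the library listed at 0, that of 14 h in cycle 1, 3 reads would have given 3.37, which is 543-fold below the starved mean. A count of 0 in 1 library sets no firm bound on the fall. The cycle 1 libraries of 13.5 and 14.5 h held 6.28 and 10.5 (7 and 12 reads).

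The fall of Lgr5 was steep. Over the 6 hours sampled in both cycles from 1.5 to 5 h, log2(value) changed by -1.68 ± 0.08 (SE) per hour in cycle 1 and by -1.11 ± 0.09 per hour in cycle 2, which is a halving of the level every 0.595 h and 0.900 h. The value went from 1224 at 1.5 h to 480.7 at 2.5 h, 79.9 at 4 h and 6.50 at 5.5 h in cycle 1. In cycle 2 it went from 1226 at 1.5 h to 704.5 at 2.5 h, 255 at 4 h and 48.0 at 6 h. On the log2 scale its difference from the starved libraries ranked 2 among the falls of all 15895 genes at 11 to 14 h, 15 at 25 to 27 h, and 1495 at 1 to 3 h. Lgr5 was chosen for the size of its fall from these libraries, so a high rank restates that choice. At 1 to 3 h its values were still spread from 181 to 1246 in cycle 1 and from 495 to 1304 in cycle 2.

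After 11 to 14 h the median of Lgr5 climbed slowly while staying far below the starved level. In cycle 1 the median was 6.50 at 4 to 10 h, 5.90 at 11 to 14 h, 16.8 at 15 to 24.5 h, 22.9 at 25 to 27 h and 35.5 at 28 to 33 h. In cycle 2 it was 48.0 at 4 to 10 h, 37.5 at 11 to 14 h, 49.2 at 15 to 24.5 h and 78.0 at 25 to 27 h. The 4 to 10 h window still holds the end of the fall. The 3 values of 25 to 27 h in cycle 1 (22.7, 22.9 and 28.1) lie above all 6 of 11 to 14 h, and the 3 of cycle 2 (78.0, 69.6 and 80.3) lie above all 4. Lgr5 was chosen for its fall, so a later level above that low is a description only. The share of all genes that separate in this way was not computed. From 34 to 38 h in cycle 1 the values were 69.8, 143, 265, 425 and 516, the last being below the lowest starved library (1769).

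**Figure D1:**
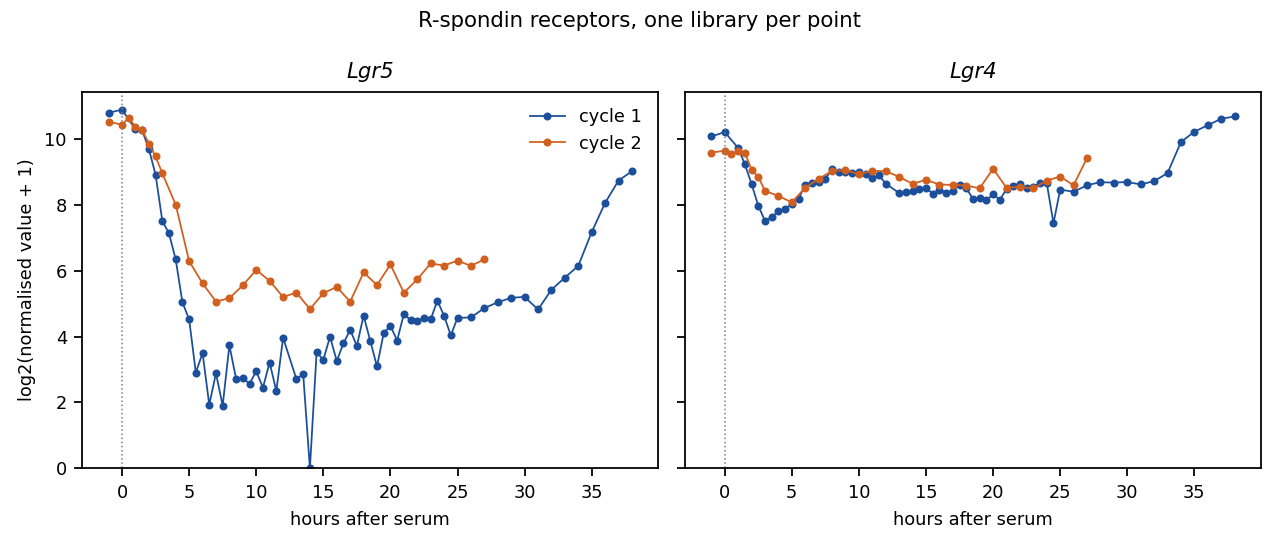
Lgr5 and Lgr4 by hour after serum, as log2(normalised value + 1), with 1 point per library and the 2 cycles in different colours. Lgr5 drops from starved values of 1375 to 1887 to between 0 and 50.6 at 11 to 14 h, while Lgr4 dips to 181 at 3 h of cycle 1 and 268 at 5 h of cycle 2, rebounds to 541 and 528, and from 15 to 33 h lies between 172 (24.5 h of cycle 1) and 684 (27 h of cycle 2).

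Lgr4, the related and more widely expressed R-spondin receptor, fell early, came part of the way back and did not vanish. Starved libraries held 1075 and 1177 in cycle 1 and 765 and 795 in cycle 2. In cycle 1 the value fell to 396 at 2 h and to 181 at 3 h, and rose again to 541 at 8 h, 2.98 times the low. In cycle 2 it fell to 268 at 5 h and rose to 528 at 9 h, 1.97 times the low. The 6 libraries of 11 to 14 h in cycle 1 held 326 to 472 and the 4 of cycle 2 held 396 to 520, all below every starved library. The log2 difference from starved was -1.16 ± 0.17 (SE, adjusted p = 8.6e-07, limma) at 11 to 14 h and -1.16 ± 0.18 (adjusted p = 2.14e-06) at 25 to 27 h. With cycle 2 alone the difference was -0.73 at 11 to 14 h (adjusted p = 0.101) and -0.66 at 25 to 27 h (adjusted p = 0.163), so these calls rest on cycle 1. Libraries of 20 and 27 h in cycle 2 stood above their neighbours for this gene, with 545 and 684.

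The balance of the 2 receptors turned over. Per kilobase of the longest transcript, the starved level of Lgr5 was 381 in cycle 1 and 296 in cycle 2, and that of Lgr4 was 223 and 154, so Lgr5 was 1.71 and 1.92 times as high. At 11 to 14 h the level per kilobase of Lgr5 was 1.35 and 7.98 against 76.2 and 93.5 for Lgr4, a ratio of 0.018 in cycle 1 and 0.085 in cycle 2. At 34 to 38 h of cycle 1 the ratio was 0.224.

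Other genes of the R-spondin branch were read from a pathway list of 91 further genes in 10 roles, of which 82 have a row. R-spondins are the ligands of these receptors, and 3 of the 4 fell at 11 to 14 h, where 15.8% of all genes did. Rspo2 went from starved values of 431 and 491 in cycle 1 and 243 and 258 in cycle 2 to 11.0 to 26.9 and 30.0 to 51.4, a log2 difference of -3.55 ± 0.28 (SE, adjusted p = 4.12e-12, limma). Rspo3 went from 745 and 792 and from 340 and 341 to 31.1 to 38.2 and 53.2 to 68.5 (log2 difference -3.46 ± 0.30, adjusted p = 2.38e-11). Rspo1 went from 72.0 and 72.1 and from 31.5 and 32.1 to 6.42 to 18.3 and 6.01 to 6.86 (log2 difference -2.36 ± 0.32, adjusted p = 2.03e-07), and Rspo4 was at 0 to 1.65 in the starved libraries. In both cycles the 11 to 14 h libraries lie below the starved ones for Rspo1, Rspo2 and Rspo3. Among the receptors' partners, Znrf3 held 84.9 to 99.2 in the starved libraries and 119 to 172 at 11 to 14 h (log2 difference 0.54 ± 0.12, adjusted p = 0.000443), below the fold required for a call. Rnf43, the other partner, held 4.77 to 10.0 and then 2.2 to 7.3 (log2 difference -0.31 ± 0.33, adjusted p = 0.445). It was called lower in the limma F test over all hours sampled in both cycles (adjusted p = 0.0029), with its largest difference, -1.77 ± 0.47, at 6 h. Lgr6, the third R-spondin receptor, went from 27.1 and 39.2 to 56.3 to 87.7 in cycle 1. In cycle 2 it held 54.4 and 68.7 and then 54.0 to 73.8, which overlap (log2 difference over both cycles 0.60 ± 0.26, adjusted p = 0.055).

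Sfrp1 and Sfrp2, which bind Wnt proteins outside the cell, had the highest levels per kilobase of the 4 antagonists in the starved cells and fell steadily to a low plateau. Sfrp1 held 6440 and 6657 in the starved libraries of cycle 1 and 10984 and 10567 in those of cycle 2. It held 673 to 767 (median 735) and 1860 to 2069 (median 1966) at 11 to 14 h. The groups do not overlap within a cycle, and at 25 to 27 h the values were 796 to 993 and 1843 to 1876. The log2 difference at 11 to 14 h was -2.83 ± 0.50 (SE, adjusted p = 1.87e-05, limma), and at 25 to 27 h it was -2.73 ± 0.53 (adjusted p = 5.97e-05).

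Sfrp2 differed between the cycles before serum was added. Its starved values were 13562 and 12094 in cycle 1 and 3736 and 3538 in cycle 2, a mean 3.53 times as high in cycle 1, while the starved mean of Sfrp1 was 1.65 times as high in cycle 2. No other member differed by more than 1.44 times between the starved means. Sfrp2 held 957 to 1034 in cycle 1 and 556 to 689 in cycle 2 at 11 to 14 h, and at 25 to 27 h it held 535 to 814 and 419 to 543. The log2 difference from starved was -3.13 ± 0.37 (SE, adjusted p = 1.5e-08, limma) at 11 to 14 h and -3.53 ± 0.39 (adjusted p = 3.56e-09) at 25 to 27 h. Per kilobase, Sfrp1 stood at 0.234 times Sfrp2 in the starved cells of cycle 1 and at 1.36 times Sfrp2 in those of cycle 2, so the order of the pair is not the same in the 2 cycles.

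Dkk2 and Dkk3 fell with different time courses. Dkk2, which acts on the Lrp co-receptor, held 1136 and 1080 in the starved libraries of cycle 1 and 1231 and 1240 in those of cycle 2, and was below 0.5 times the starved mean from 2 h in both. In cycle 1 it fell to 166 at 3 h, rose 3.15-fold to 522 at 6 h and fell again to 164 at 13 h. In cycle 2 it fell to 211 at 5 h, and the rise to 300.3 at 8 h was 1.42-fold. Its values of 11 to 14 h were 164 to 261 and 214 to 248 (log2 difference -2.41 ± 0.22 SE, adjusted p = 5.2e-11, limma), and at 25 to 27 h they were 123 to 202 and 188 to 232 (log2 difference -2.69 ± 0.23, adjusted p = 1.55e-11).

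Dkk3, a relative of Dkk2 whose role in Wnt signalling is less settled, went down without a rebound in the first 14 h, and rose again at 34 to 38 h of cycle 1. Its starved values were 1568, 1586, 1607 and 1572, the closest agreement between the cycles among the members. It was first below 0.5 times the starved mean at 4.5 h in cycle 1 and at 6 h in cycle 2. At 11 to 14 h it held 292 to 366 and 475 to 531, a log2 difference of -2.0 ± 0.20 (SE, adjusted p = 6.29e-10, limma), and at 25 to 27 h it held 282 to 323 and 405 to 462 (log2 difference -2.12 ± 0.21, adjusted p = 5.28e-10). Sfrp1, Sfrp2 and Dkk3, which had no early rebound, differed in rate. From 1.5 to 5 h log2(value) changed per hour by -0.44 ± 0.02 (SE) in cycle 1 and -0.35 ± 0.01 in cycle 2 for Sfrp1, by -0.57 ± 0.03 and -0.26 ± 0.02 for Sfrp2, and by -0.32 ± 0.03 and -0.21 ± 0.01 for Dkk3. All of these slopes are shallower than those of Lgr5, and for each of these genes the slope is steeper in cycle 1.

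**Figure D2:**
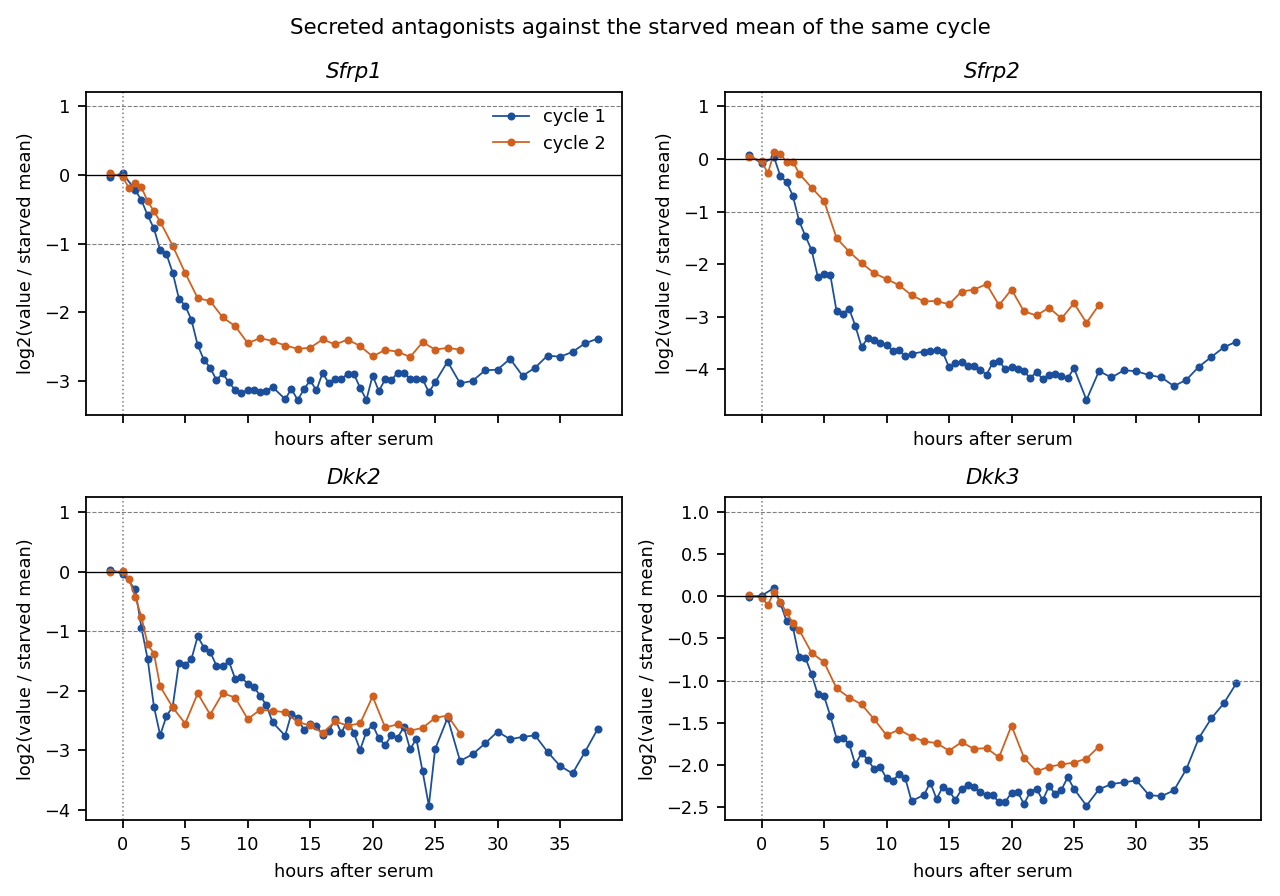
Sfrp1, Sfrp2, Dkk2 and Dkk3 by hour after serum, as log2 of the value over the starved mean of the same cycle, with 1 point per library and dashed lines at ratios of 0.5 and 2. Sfrp1, Sfrp2 and Dkk3 decline without a rebound before 14 h, Dkk3 climbs to 772 at 38 h of cycle 1, and Dkk2 falls to 166 at 3 h of cycle 1 before a rebound to 522 at 6 h.

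Axin2, a target of canonical Wnt signalling whose protein takes part in the degradation of beta-catenin, fell, recovered and fell again. Its starved values were 57.1 and 72.9 in cycle 1 and 94.4 and 78.3 in cycle 2. The lowest values of the first 6 h were 14.8 at 4.5 h in cycle 1 and 20.4 at 3 h in cycle 2, and the gene was back at 83.1 at 11.5 h and 89.2 at 12 h, rises of 5.59-fold and 4.38-fold. At 11 to 14 h the values of 61.7 to 83.1 and 66.1 to 89.2 overlap with the starved ones in both cycles (log2 difference -0.03 ± 0.24 SE, adjusted p = 0.919, limma). At 25 to 27 h the values were 15.8 to 34.6 in cycle 1 and 32.9 to 63.6 in cycle 2, below all starved libraries of the same cycle. The 15.8 is from the 26 h library and rests on 9 reads. The log2 difference of 25 to 27 h from 11 to 14 h, which uses no starved library, was -1.12 ± 0.21 (SE, adjusted p = 0.00033), and with cycle 2 alone it was -0.73 (adjusted p = 0.312). Against the starved libraries it was -1.15 ± 0.25 (adjusted p = 0.000275), and with edgeR on the recovered reads -0.96 (adjusted p = 0.00109), which is short of the fold required.

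Lef1, a transcription factor that works with beta-catenin, rose from a very low level. Starved values were 9.52 and 10.3 in cycle 1 and 6.68 and 7.42 in cycle 2, and after a low of 5.89 and 4.54 at 1 h the value was 25.9 and 25.1 at 2 h. It held 20.0 to 28.2 and 13.2 to 20.3 at 11 to 14 h, above every starved library, with a log2 difference of 1.24 ± 0.32 (SE, adjusted p = 0.00127, limma). At 25 to 27 h it held 20.5 to 28.1 and 13.5 to 27.7 (log2 difference 1.27 ± 0.33, adjusted p = 0.00169). The highest value of cycle 2 was 38.1 at 4 h, and both cycles were above 2 times their starved mean in 13 of the 29 shared hours. At these levels the pseudocount matters: with 10 in place of 1 the difference at 11 to 14 h was 0.77 (adjusted p = 0.00246), below the fold required, and with cycle 2 alone it was 1.17 (adjusted p = 0.178).

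Wnt5a, a ligand of the non-canonical branch, and Ctnnb1 changed little. Wnt5a held 873 and 796 in the starved libraries of cycle 1 and 873 and 865 in those of cycle 2. It dipped to 535 and 731 at 1 h and reached its highest values of 1481 at 11.5 h in cycle 1 and 1562 at 7 h in cycle 2, and no library of either cycle was above 2 times the starved mean. At 11 to 14 h the values were 951 to 1481 and 1269 to 1437, above all starved libraries, with a log2 difference of 0.55 ± 0.13 (SE, adjusted p = 0.000517, limma), which is below the fold required for a call. Ctnnb1 held 8227 and 7746 in the starved libraries of cycle 1 and 9609 and 9160 in those of cycle 2, and 5369 to 6431 and 7427 to 7761 at 11 to 14 h. Its log2 difference was -0.38 ± 0.12 (SE, adjusted p = 0.00769) and no library was below 0.5 times the starved mean. The deposited values of Ctnnb1 and Lef1 are means over transcripts, so their levels per kilobase cannot be compared.

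**Figure D3:**
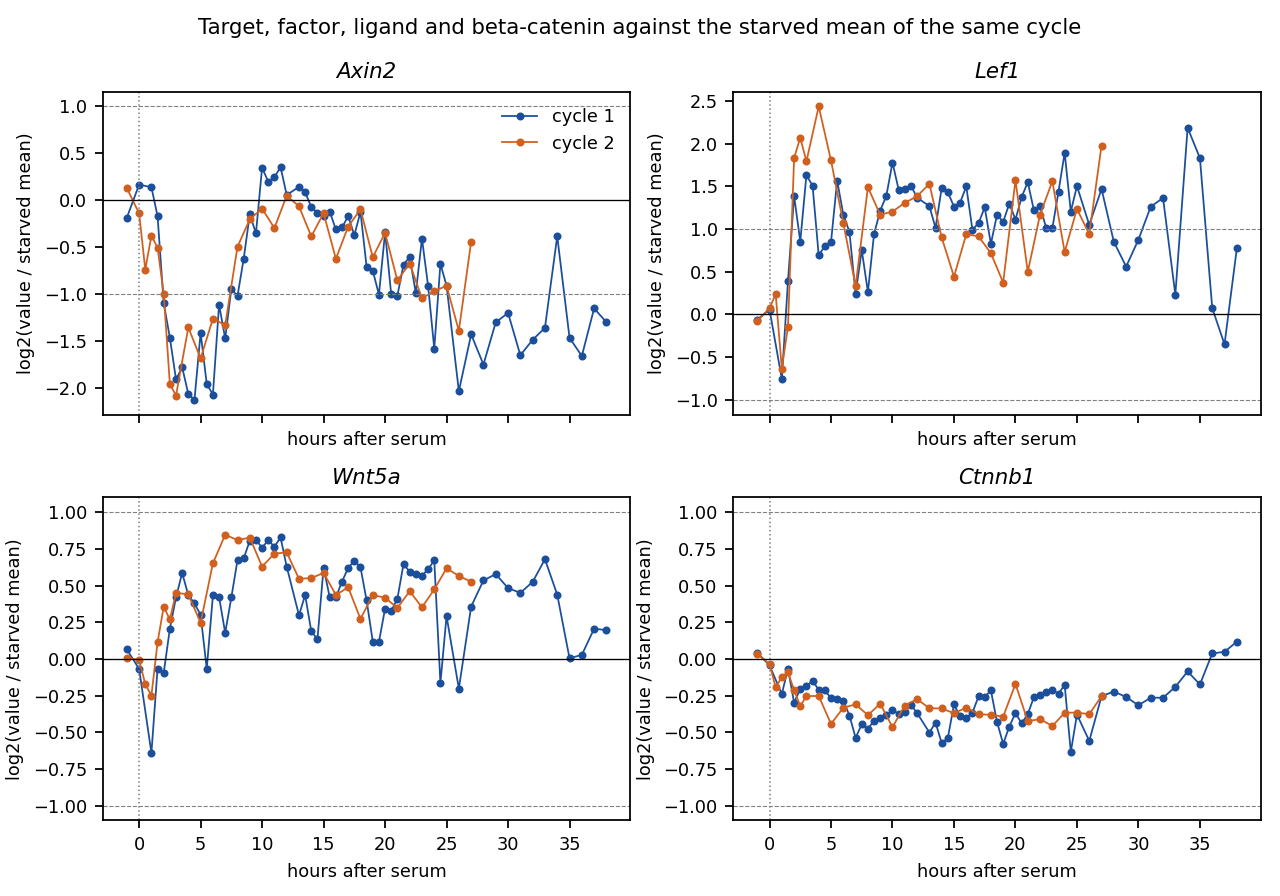
Axin2, Lef1, Wnt5a and Ctnnb1 by hour after serum, as log2 of the value over the starved mean of the same cycle, with 1 point per library and dashed lines at ratios of 0.5 and 2. Axin2 has a low within 6 h and returns to 83.1 at 11.5 h of cycle 1 before it declines, Lef1 is mostly above its starved mean, and Wnt5a and Ctnnb1 stay between the dashed lines.

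Counted over the 9 members other than Lgr5, with a call set at an adjusted p under 0.05 and a log2 difference over 1 in size, 3 fell at 1 to 3 h (Lgr4, Axin2 and Dkk2), where 11.4% of all genes were called lower. None was called higher by limma at 1 to 3 h, where 5.11% of all genes were. Lef1 was higher there (log2 difference 0.80 ± 0.30 SE, adjusted p = 0.0307, limma), and only the fold fell short of a call. No other member with a higher value had an unadjusted p under 0.05. By edgeR and DESeq2 on the recovered reads 1 member each was called higher, Lef1 (log2 difference 1.12 and 1.13), and 1 lower, Dkk2 (-1.06 and -1.06). Lgr4 and Axin2 at 1 to 3 h lie close to the fold required, at -1.01 ± 0.16 and -1.01 ± 0.23 (SE, adjusted p = 4.17e-06 and 0.000501), and both fall short of it with TMM scaling (-0.76 and -0.77), edgeR (-0.75 and -0.82) and DESeq2 (-0.76 and -0.81). Dkk2, at -1.34 ± 0.21 (adjusted p = 2.4e-06), was called under all 3. Without the -1 h or the 0 h library of cycle 1 the value of Lgr4 was -0.95 or -0.90, and without those of cycle 2 the value of Axin2 was -0.90 or -0.99. The median gene moved up by 0.25 (log2) at 1 to 3 h, 0.11 at 11 to 14 h and 0.14 at 25 to 27 h when TMM scaling was applied.

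At 11 to 14 h 5 of the 9 fell (Lgr4, Sfrp1, Sfrp2, Dkk2 and Dkk3) against 15.8% of all genes, and Lef1 rose against 6.73%. At 25 to 27 h 6 fell, the same 5 genes and Axin2, against 18.3% of all genes, and Lef1 rose against 6.27%. In the test over any shared hour 6 were called lower and 1 higher, where 32.4% and 14.0% of all genes were. The 1 is Lef1 (adjusted p = 0.0269), and without the -1 h or the 0 h library of cycle 2 its adjusted p was 0.0542 or 0.052. Between 25 to 27 h and 11 to 14 h, Axin2 was lower where 2.94% of all genes were. No member was called higher where 0.969% of all genes were, and none of the 9 had an unadjusted p under 0.05 in that direction or was called higher by edgeR or DESeq2. The median log2 difference of the 9 members was -1.16 at 11 to 14 h, against -0.13 for all genes tested. The 4 comparisons with the starved cells share those libraries, and the members were chosen with results known, so the counts are a description of these genes.

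Among the 82 other genes of the list, 22 fell and 6 rose at 11 to 14 h, where 15.8% and 6.73% of all genes did, with a median log2 difference of -0.35. At 1 to 3 h 15 fell and 3 rose, against 11.4% and 5.11% of all genes, and at 25 to 27 h 23 fell and 3 rose, against 18.3% and 6.27% (25 and 5 with the cycle as a block). Of the 8 other secreted antagonists 3 fell and 1 rose at 11 to 14 h. The 1 that rose is Notum, an enzyme that removes the lipid from Wnt proteins, which went from 10.0 and 18.0 in cycle 1 and 6.68 and 9.07 in cycle 2 to 79.8 to 106 and 27.0 to 35.1 (log2 difference 2.25 ± 0.45, adjusted p = 8.41e-05, limma). Among the falls, Sfrp4 gave the largest fall of the list in any shared hour, -5.28 ± 0.43 (SE) at 24 h, the hour of its largest difference. The adjusted p of 7.01e-14 is from limma's F test over all shared hours and not from that hour alone. Sfrp4 held 233 to 241 in the starved libraries of cycle 1 and 226 to 249.0 in those of cycle 2, then 22.4 to 35.8 and 43.2 to 62.5 at 11 to 14 h and 6.03 to 12.3 and 10.7 to 15.6 at 25 to 27 h. It therefore went on falling after 14 h, by -1.75 ± 0.27 (adjusted p = 1.79e-05) between the 2 windows. Among the genes for beta-catenin's nuclear partners 4 of 9 fell at 11 to 14 h, Tcf7l2 among them, from 251 to 389 over the starved libraries to 99.3 to 141 over both cycles (log2 difference -1.38 ± 0.14, adjusted p = 9.17e-10). Of the 8 other feedback targets 3 fell, with Nkd1, an antagonist of Dishevelled, going from 357 and 383 in cycle 1 and 196 and 205 in cycle 2 to 37.1 to 87.0 and 39.0 to 68.6 (log2 difference -2.33 ± 0.21, adjusted p = 7.55e-11).

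The Wnt ligands were the role with the most rises, 4 of 13 at 11 to 14 h (Wnt2, Wnt4, Wnt7a and Wnt11), where 6.73% of all genes rose. The 2 that fell, of 13, are near the 15.8% of all genes. Wnt7a was listed at 0 in all 4 starved libraries and held 5.48 to 16.5 and 2.57 to 3.43 at 11 to 14 h (adjusted p = 0.00115, limma). In those libraries of cycle 2, 3 reads are worth 2.31 to 2.57, so the values there are near the floor. Over any shared hour Wnt7a was not called (adjusted p = 0.175, limma). Wnt2 went from 40.6 and 58.4 in the starved libraries of cycle 1 and 18.1 in both of cycle 2 to 100.4 to 439 and 25.6 to 150.0 at 1 to 3 h, and was back at 39.2 to 45.8 and 11.7 to 20.6 at 25 to 27 h. Wnt11, a non-canonical ligand, went from 81.1 and 84.2 and from 25.8 and 34.6 to 245 to 720.1 and 86.9 to 343 at 1 to 3 h, with a log2 difference of 2.56 ± 0.33 (SE, adjusted p = 6.77e-08, limma). Both were lower at 25 to 27 h than at 11 to 14 h, by -1.89 ± 0.48 (adjusted p = 0.00619) and -1.33 ± 0.30 (adjusted p = 0.00221). Wnt4 rose later and stayed up, from 74.8 and 76.7 in cycle 1 and 168 and 189 in cycle 2 to 373 to 528 and 672 to 742 at 11 to 14 h (log2 difference 2.26 ± 0.40, adjusted p = 1.4e-05). Wnt16 fell, from 84.8 and 116 in cycle 1 and 174 and 192 in cycle 2 to 1.12 to 7.34 and 18.0 to 22.4 (log2 difference -3.96 ± 0.70, adjusted p = 1.74e-05), the largest fall after that of Sfrp4 in any shared hour.

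**Figure D4:**
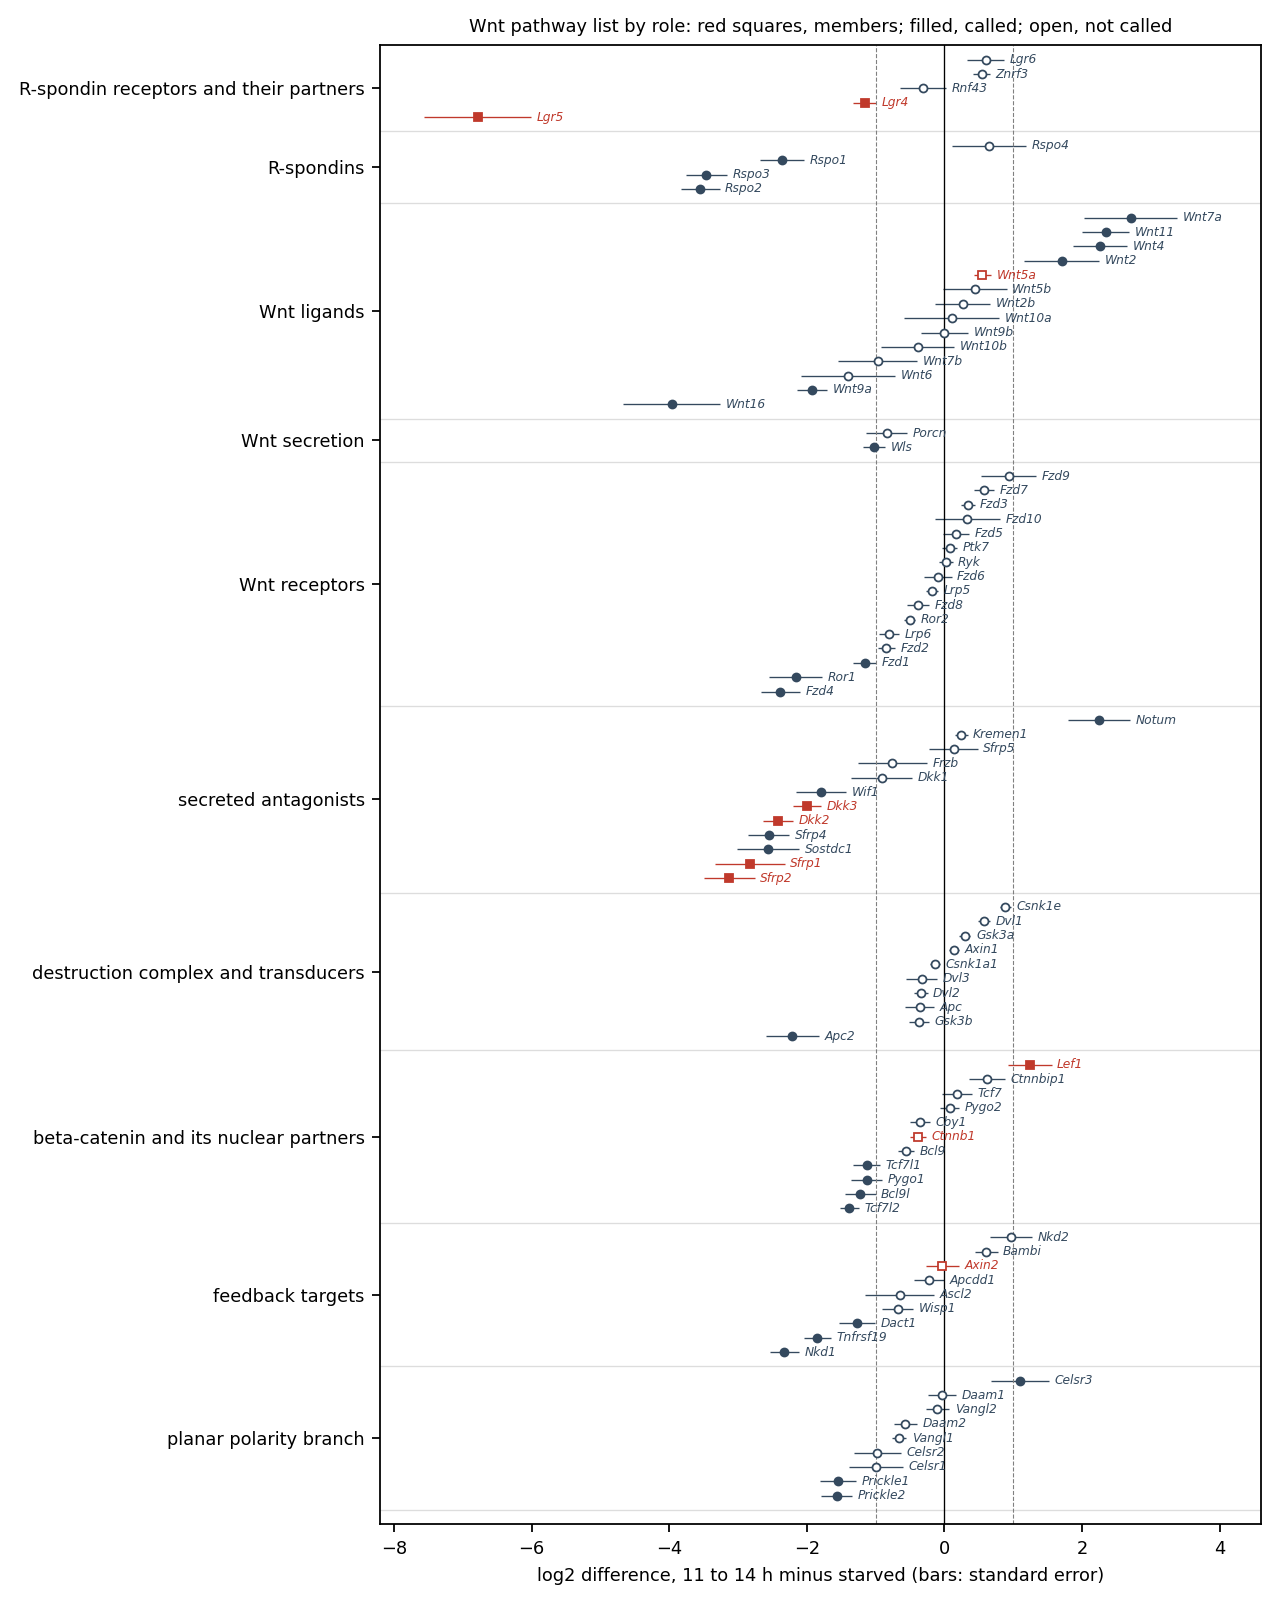
Log2 difference of 11 to 14 h from the starved libraries for each gene of the Wnt pathway list with a row, grouped by role, with bars for the standard error of limma. Squares are the 10 members and filled symbols are called genes, among them 22 lower and 6 higher of the 82 circles. Lgr5 lies farthest to the left. It was chosen for this fall, so its filled symbol and bar are a description and carry no test.

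The genes whose pattern was most like that of Lgr5 were not Wnt genes of the list. By the lower of the 2 Pearson correlations of log2(value + 1) with Lgr5, one over 63 and one over 32 libraries, the first 5 of 12129 genes were Zcchc5 (0.949), Col5a2 (0.933), Casp12 (0.933), Figf (0.930) and Ldb2 (0.928). All genes share these libraries and the time axis, so the correlations are a description. Ldb2 went from starved means of 1188 and 269 to 17.1 and 34.0 at 11 to 14 h, and Zcchc5 from 2170 and 569 to 27.2 and 42.0, while Col5a2, a collagen gene, went only from 35714 and 34924 to 19351 and 26139. Among the members Sfrp1 came closest (0.823, rank 111), then Dkk3 (0.789, rank 168), and Lgr4 was at 0.469 (rank 1471). Axin2 (-0.187) and Wnt5a (-0.798) were the members least like it, and Lef1, always below 50, was not ranked.

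Cycle 1 alone ran on past 27 h, and several members moved there together. From 33 to 34 h Lgr4 went from 496 to 955, a factor of 1.92, and it rose to 1635 at 38 h, above the starved libraries (1075 and 1177). Across 34 to 38 h, 5 members (Lgr5, Lgr4, Sfrp1, Dkk3 and Ctnnb1) lay wholly above their 6 libraries of 28 to 33 h, where 11.8% of all genes did, and Wnt5a lay wholly below them, where 5.97% did. Dkk3 went from 305 to 347 at 28 to 33 h up to 381 to 772, and Sfrp1 from 817 to 1021 up to 1042 to 1251. Lgr5 went from 27.2 to 54.2 up to 69.8 to 516. Dkk2, at 132 to 172 and then 106 to 177, did not leave its range. The 2 windows were set after the values were seen and come from 1 time course, so no test is given.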

How the data were processed

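Stranded poly(A) RNA libraries were sequenced as 50-base single reads with 12 libraries to a lane. Per the labels, the authors demultiplexed with CASAVA, aligned to mm9 with STAR and used HOMER to count exon reads on both strands; versions are not given in the sources used here. The deposited signal of a gene is its read number scaled to 10000000, and a mean over transcripts for some genes. From 95.8% to 99.9% of low values per library were whole reads within 0.1, which gave the depth and the reads used in the count tests. Of 96 columns 95 were matched to a sample, and 1 column matched none and was not used.

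Here log2(value + 1) was fitted with limma 3.58.1 (R 4.3.3), with 4 starved libraries as 1 group and each of 29 shared hours as a group of 2. Windows are means of hours in that fit, p-values are Benjamini-Hochberg adjusted over 15895 genes, and folds on this scale understate low genes. The design took -1 and 0 h as the baseline, as in the study. Alternatives were other pseudocounts, a minimum mean of 50, TMM scaling, a cycle block, limma's trend, edgeR 4.0.16 and DESeq2 1.42.0 on recovered reads, and libraries left out. In simulated data limma recovered 200 of 200 genes changed 4-fold in the contrast of 11 to 14 h, with 0 false calls, and 200 of 200 in the test over any shared hour, with 12 false calls. The simulated libraries were independent, with the same dispersion for all genes and no difference between cycles, and genes of low mean were not changed. The simulation therefore checks the code and gives no error rate for these data. The cycle number marks a shared time course in the labels. Differences between cycles correlated across genes with a median of 0.29 over 465 pairs of hours (lowest 0.01), and 443 pairs were over 0.1.

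The members and the pathway list were chosen with earlier results of these data known. Named genes are the members, the 3 largest rises and falls of the list among genes called over any shared hour, genes of a role that is counted, and the 5 genes most like Lgr5.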

Additional observations from a re-analysis of the deposited data

Results flagged for a closer look

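Only cycle 1 was sampled from 28 to 38 h, and these hours entered no test. There 4 members had a library above the highest starved library of that cycle. For Lef1 and Wnt5a this was so earlier too, with 36.8 at 24 h and 1481 at 11.5 h of cycle 1. Lgr4 reached 1635 at 38 h, against 1177. Lef1 reached 45.1 at 34 h, against 10.3, and was 7.79 at 37 h. Wnt5a reached 1336 at 33 h, against 873. Ctnnb1 reached 8662 at 38 h, against 8227. Depth was 5308276 reads at 38 h, 12039905 at 34 h and 8300403 at 33 h, and the part of depth in these values was not tested.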

How the results depend on the processing

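Over all genes, a minimum mean of 50 left 4715 calls for any shared hour, 1362 at 1 to 3 h, 1607 at 11 to 14 h, 1792 at 25 to 27 h and 274 between the later windows, from fewer genes tested, against 7365, 2621, 3574, 3904 and 621. A pseudocount of 10 left 1542, 2203, 2440 and 290 in the window comparisons, since it shrinks the folds of low genes. With 1 cycle at a time, calls ranged from 1406 to 3437 at 1 to 3 h, from 2109 to 4896 at 11 to 14 h and from 2145 to 5415 at 25 to 27 h, the lower with cycle 2 alone; the cause was not tested. The replicate block of the cycle changed no call of the 9 members, and gave 8352 calls for any shared hour. Of the 82 list genes it changed the call of 7 over any shared hour (Wnt7a is then higher), 1 at 1 to 3 h, 1 at 11 to 14 h, 4 at 25 to 27 h (25 lower and 5 higher) and 2 between the later windows.

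Signs turned only for differences of members that were not called. At 1 to 3 h, TMM, edgeR and DESeq2 gave 0.022, 0.0224 and 0.0275 for Dkk3 and 0.0503, 0.0455 and 0.0518 for Ctnnb1, and at 11 to 14 h they gave 0.0716, 0.0444 and 0.0039 for Axin2, whose mean ratio to starved was 1.054 with TMM. With libraries or a cycle left out, values ranged at 1 to 3 h from -0.5916 to 0.0545 for Sfrp2 and from -0.0336 to 0.1872 for Wnt5a, and at 11 to 14 h from -0.1671 to 0.143 for Axin2. Between the later windows they ranged from -0.1354 to 0.0737 for Lgr4, -0.011 to 0.1006 for Lef1, -0.1059 to 0.2506 for Sfrp1 and -0.0195 to 0.0282 for Ctnnb1. The lows of Lgr4, Sfrp1 and Ctnnb1 are from the setting without the 27 h library of cycle 2, chosen after seeing the data. In 549 of 602 recomputed differences of a member, direction and call were those reported. At a depth near 10832557 reads, values below about 3 rest on 3 reads or fewer.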
